A study of Mus musculus with 8 samples.

Results

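The genes described here encode 10 amino acid transporters and transporter subunits, measured in mouse gastrocnemius among 19938 genes. They were chosen by name as a list, in which Slc38a2 was picked for its difference between the genotypes. That difference is therefore given as a description with no test. The gastrocnemius is a mixed muscle of the calf. It came from male mice aged 6 months that ate chow and were fasted for 5 h, with 1 Affymetrix array per mouse. The knockout group (Gcn5skm-/-, 4 mice) was homozygous for the floxed allele of Gcn5, written Gcn5 L2/L2, and carried the Cre recombinase transgene HSAcre (Tg/0). That transgene is driven by the skeletal actin promoter of humans and is active in fibres of skeletal muscle. The wild-type group (Gcn5skm+/+, 4 mice) had the same Gcn5 L2/L2 alleles and no transgene (HSAcre 0/0). Cre was present in the knockout group alone, so effects of Cre and of the deletion cannot be told apart. Cells of the muscle other than fibres keep the gene.

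Amino acids enter cells through membrane carriers that differ in their substrates and driving force. System A carriers of the SLC38 family use the sodium gradient to accumulate small neutral amino acids such as alanine and glutamine. Exchangers such as LAT1 then trade intracellular glutamine for leucine and other large neutral amino acids, which signal to the growth kinase mTORC1. Slc38a2 encodes SNAT2, a system A carrier of muscle that is known to be induced when amino acids are scarce, through the kinase GCN2 and the transcription factor ATF4, and when cells shrink in hypertonic medium.

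Slc38a1, Slc38a2 and Slc38a4 are consecutive protein-coding genes on chromosome 15 of the GRCm38.p6 RefSeq annotation. The 250 bases before the start of Slc38a2 and of Slc38a4 are printed 5′ to 3′ because these neighbours had differences of similar size and unlike promoter sequences. Both are on the minus strand of GRCm38.p6, at chr15:96699729-96699978 and, for the first of 3 listed Slc38a4 starts, chr15:97055957-97056206. Capitals mark CG dinucleotides.
Slc38a2: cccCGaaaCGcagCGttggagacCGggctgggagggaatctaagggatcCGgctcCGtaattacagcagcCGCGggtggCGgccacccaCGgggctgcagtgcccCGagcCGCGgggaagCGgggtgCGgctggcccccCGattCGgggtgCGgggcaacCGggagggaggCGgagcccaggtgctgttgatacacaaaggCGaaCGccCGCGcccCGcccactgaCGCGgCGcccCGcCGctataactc
Slc38a4: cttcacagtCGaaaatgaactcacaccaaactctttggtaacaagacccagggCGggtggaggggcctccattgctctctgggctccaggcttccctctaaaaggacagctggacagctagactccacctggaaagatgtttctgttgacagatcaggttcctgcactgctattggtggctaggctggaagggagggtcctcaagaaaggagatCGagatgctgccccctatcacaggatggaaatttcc
The Slc38a2 sequence had 72.0% G and C and 30 CG dinucleotides, more than or as many as 94.8% of 32851 promoter entries of the same length. The Slc38a4 sequence had 52.8% G and C and 3 CG dinucleotides, against a median of 6 over all entries. The other 2 listed Slc38a4 starts had 5 each.

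The RefSeq promoter table matched 6 of the 10 genes, with 8 entries. Searched on both strands, the composite element of C/EBP and ATF factors (TGATGNAA, in 3.45% of all entries) and the cyclic AMP response element (TGACGTCA, 1.55%) gave no match in any of the 8 windows of 250 bases. An AP-1 element (TGANTCA, 6.75%) lay before Slc38a10, an E-box (CACGTG, 6.02%) before Slc43a1, and a heat-shock element pair (GAANNTTC, 6.69%) before the first start of Slc38a4. The letters TATAA, found in 22.8% of entries, occurred before Slc38a2, Slc43a1 and the second start of Slc38a4. These matches describe the letters of the window alone, and the stretch TTATAA counts as a TATAA match on both strands. Bases after the start, introns among them, were not searched. A window without a match therefore does not show that a gene lacks the element.

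Array signals are log2 values after RMA and do not compare abundance between genes. Signal of the targeted gene, Kat2a, the symbol of Gcn5, averaged 6.46 ± 0.03 over wild types and 5.79 ± 0.05 over knockouts (SD, n = 4 each), a direction that fits the labels. Array medians over all transcript clusters lay between 4.61 and 4.72. Wild type 2 stood somewhat apart, with an average correlation to the others of 0.987 where the rest had 0.989 to 0.992. Defining genes of muscle fibres, among them Ckm and Acta1, averaged 11.97 to 12.22 in the 8 arrays. Differences are knockout minus wild type throughout, and p values come from limma's test over all 19938 genes with Benjamini-Hochberg adjustment.

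Slc38a2 measured 9.82, 9.80, 9.64 and 9.78 in wild types 1 to 4 and 9.41, 9.27, 9.31 and 9.32 in knockouts 1 to 4. Each knockout lay below each wild type, and the 4 values within a genotype were close together. The means were 9.76 ± 0.08 and 9.33 ± 0.06 (SD, n = 4 each), a difference of -0.44 (SE 0.08), or 0.739 of the wild-type signal. It was the 103rd lowest difference of the 19938 genes, and the gene was chosen for it. Leaving out any 1 array gave values from -0.48 to -0.42. In whole muscle, fewer cells that make a transcript and less of it per cell cannot be told apart.

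**Figure D1:**
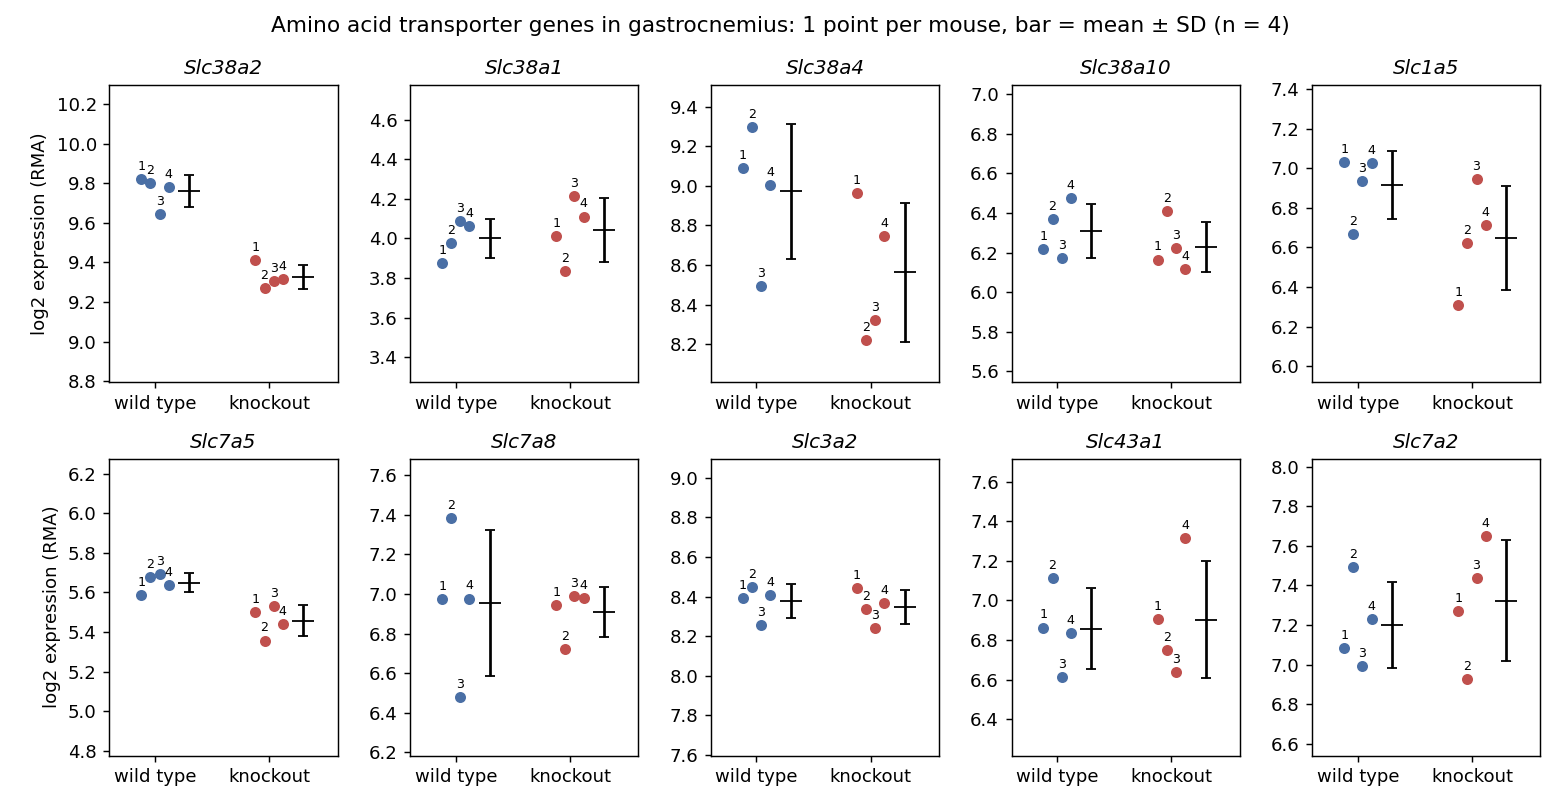
Log2 expression (RMA) of the 10 genes, with 1 numbered point per mouse, wild types in blue and knockouts in red, and the mean with its SD (n = 4) as a bar. Every panel spans 1.5 log2 units; the groups are apart in Slc38a2 and Slc7a5 and overlap in the other 8 genes.

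Of the 9 transporters besides Slc38a2, 0 passed limma's test at a false discovery rate of 5%, where 3 of all 19938 genes did (0.015%). Those 3 were the targeted gene Kat2a itself, Lrtm1 and Ssbp2. At an unadjusted p under 0.05 stood 2 of these 9, Slc38a4 and Slc7a5, both lower. Over all genes 5.73% stood under that p, and genes that were also lower made up 3.39%. The genotypes did not overlap for Slc38a2 and Slc7a5, against 3.62% of all genes. In all, 7 of the 10 were lower in knockout, against 54.7% of all genes, and the median difference was -0.06 against -0.01 over all genes. Slc38a2 was chosen by this contrast, so no support is drawn from these counts. When 1 array was left out, the number of the 9 others under 0.05 ranged from 0 to 2, and it was 0 without wild type 4 or knockout 2.

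Slc38a4 encodes SNAT4, a further sodium-coupled carrier that takes neutral and also cationic amino acids. Its values were 9.09, 9.30, 8.50 and 9.01 in wild types 1 to 4 and 8.96, 8.22, 8.32 and 8.75 in knockouts 1 to 4. Wild type 3 lay within the knockout range, and knockout 1 was close to wild type 4. The means were 8.97 ± 0.34 and 8.56 ± 0.35, a difference of -0.41 (SE 0.19, 95% interval -0.81 to -0.00275, limma adjusted p = 0.861). The difference was thus close in size to that of Slc38a2, but the SD within a genotype was 0.35 here and 0.07 there (pooled over both genotypes). It was -0.57 without wild type 3 and -0.30 without knockout 2.

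Slc38a1, which encodes the system A carrier SNAT1, had a dim signal of 3.87, 3.98, 4.09 and 4.06 in wild types 1 to 4 and 4.01, 3.83, 4.22 and 4.11 in knockouts 1 to 4. The groups overlapped fully. The difference was 0.04 (95% interval -0.17 to 0.26, limma adjusted p = 0.967), and it was -0.0146 without knockout 3. The dimmest 25% of genes had means up to 3.76, and RMA compresses differences at such signals. A second transcript cluster of Slc38a1 was dimmer still, with means of 2.53 and 2.47 and a difference of -0.06, and the mean over both clusters differed by -0.00848. The gene beyond Slc38a4 on the chromosome, Amigo2, which encodes an adhesion protein, differed by -0.13 (limma adjusted p = 0.911).

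Slc38a10 encodes a less studied member of the SLC38 family. It measured 6.22, 6.37, 6.17 and 6.48 in wild types 1 to 4 and 6.16, 6.41, 6.22 and 6.12 in knockouts 1 to 4, with overlap between the groups. Its difference was -0.08 (95% interval -0.30 to 0.14, limma adjusted p = 0.934), and -0.02 without wild type 4. Of these 4 SLC38 genes, Slc38a2 had separate groups, Slc38a4 a like difference with a wide spread, and Slc38a1 and Slc38a10 intervals on both sides of 0. Whether these differences are unequal was not tested.

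Slc1a5 encodes ASCT2, a sodium-dependent exchanger that brings glutamine into cells. It measured 7.03, 6.67, 6.94 and 7.03 in wild types 1 to 4 and 6.31, 6.62, 6.94 and 6.71 in knockouts 1 to 4. Knockout 1 was the lowest array, wild type 2 lay among the knockouts, and knockout 3 lay among the wild types. The difference was -0.27 (SE 0.13, 95% interval -0.56 to 0.02, limma adjusted p = 0.869). It was -0.16 without knockout 1 and -0.37 without wild type 2 and knockout 4 together.

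Slc7a5, Slc7a8 and Slc3a2 belong to 1 system. Slc7a5 encodes LAT1 and Slc7a8 encodes LAT2, light chains that exchange large neutral amino acids. Slc3a2 encodes the CD98 heavy chain, which pairs with either of them and brings it to the cell surface. Slc7a5 measured 5.59, 5.68, 5.69 and 5.64 in wild types 1 to 4 and 5.50, 5.36, 5.53 and 5.44 in knockouts 1 to 4. All knockouts lay below all wild types, by little. The difference was -0.19 (SE 0.08, 95% interval -0.37 to -0.01, limma adjusted p = 0.861). Knockout signal was 0.877 times that of wild type, and the difference stayed between -0.21 and -0.16 when 1 array was left out.

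Slc3a2 measured 8.39, 8.45, 8.26 and 8.41 in wild types 1 to 4 and 8.45, 8.34, 8.24 and 8.37 in knockouts 1 to 4. The spread within each genotype was nearly as small as for Slc38a2, and the groups overlapped. The difference was -0.03 (95% interval -0.22 to 0.16, limma adjusted p = 0.977), with a sign that turned to 0.02 after quantile normalization, 0.01 after cyclic loess and 0.00545 without knockout 3. Slc7a8 measured 6.97, 7.39, 6.48 and 6.98 in wild types 1 to 4 and 6.94, 6.72, 6.99 and 6.98 in knockouts 1 to 4. Its wild types held both the highest and the lowest array, and its knockouts lay between them. The difference of -0.05 (95% interval -0.38 to 0.29, limma adjusted p = 0.980) was 0.10 without wild type 2, 0.02 without knockout 2, 0.03 with array weights and 0.07 without wild type 2 and knockout 4 together.

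**Figure D2:**
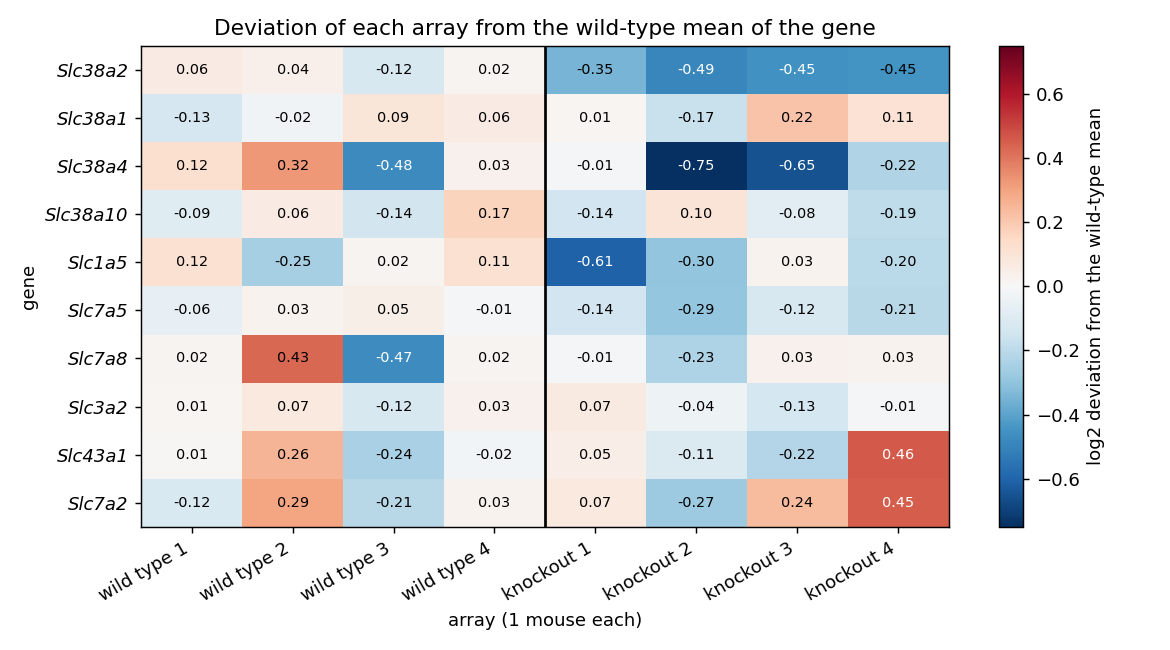
Log2 deviation of each array (columns, 1 mouse each) from the wild-type mean of the gene (rows), with red above and blue below it. The Slc38a2 row is blue in all 4 knockouts (-0.35 to -0.49), as are Slc7a5 (-0.12 to -0.29) and, unevenly, Slc38a4 (-0.00876 to -0.75), while knockout 1 stands out in Slc1a5 (-0.61) and knockout 4 in Slc43a1 (0.46) and Slc7a2 (0.45).

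Slc43a1 encodes LAT3, a facilitative carrier of large neutral amino acids that needs no heavy chain. It measured 6.86, 7.11, 6.62 and 6.84 in wild types 1 to 4 and 6.91, 6.75, 6.64 and 7.32 in knockouts 1 to 4. Knockout 4 was the highest array and the groups overlapped. The difference was 0.05 (95% interval -0.27 to 0.36, limma adjusted p = 0.978), and it was -0.09 without knockout 4, -0.03 without wild type 3 and -0.00655 without wild type 2 and knockout 4 together.

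Slc7a2 encodes CAT2, a carrier of arginine and other cationic amino acids. It measured 7.08, 7.49, 6.99 and 7.23 in wild types 1 to 4 and 7.27, 6.93, 7.44 and 7.65 in knockouts 1 to 4. The lowest and the highest array were both knockouts. The difference was 0.12 (95% interval -0.20 to 0.45, limma adjusted p = 0.934), the highest of the 10, and it was 0.01 without knockout 4 and 0.26 without knockout 2.

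**Figure D3:**
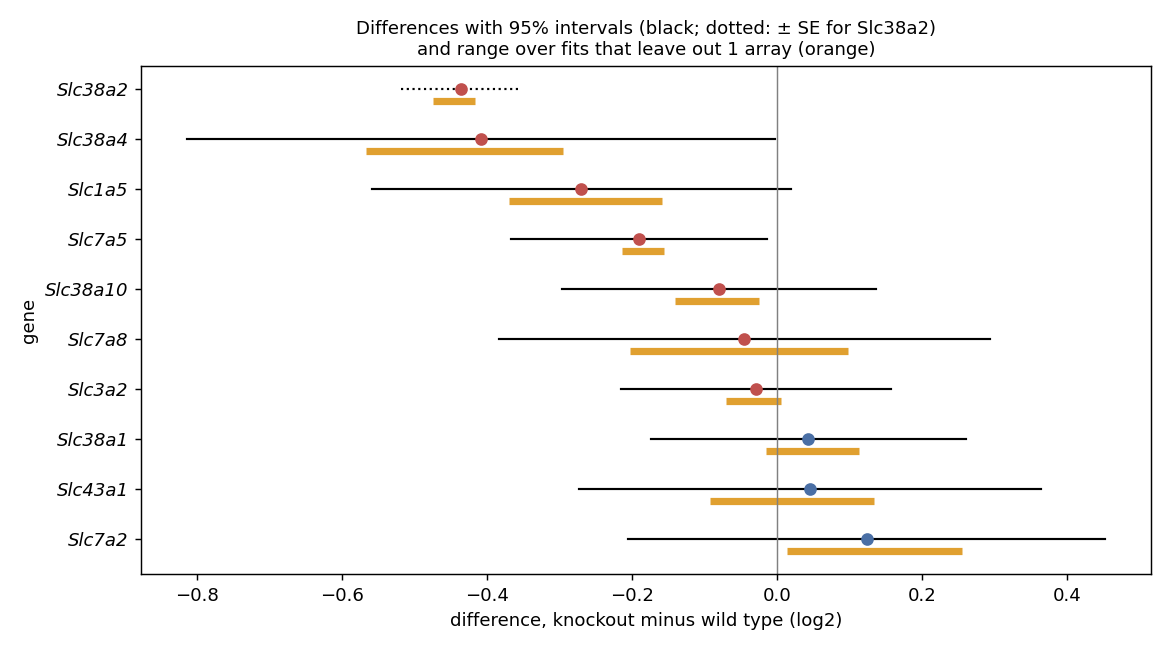
Difference between knockout and wild type on the log2 scale for each gene (points), with 95% intervals from limma in black (for Slc38a2, chosen by this value, the SE as a dotted line) and the range over fits that leave out 1 array in orange. Slc38a4 and Slc7a5 have intervals that end below 0 (at -0.00275 and -0.01), and the ranges of Slc7a8, Slc3a2, Slc38a1 and Slc43a1 cross 0.

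The pattern of Slc38a2 over the 8 arrays was compared with that of every other gene by the root mean square distance between log2 values centred on each gene's mean. The nearest were Pon3 (distance 0.0638), Abcg5 (0.0691), Exoc7 (0.0694), Olfr151 (0.0720) and Hipk2 (0.0775), against a median of 0.259 over all genes. Their differences between the genotypes were -0.48, -0.37, -0.36, -0.43 and -0.33, and the groups did not overlap in any of the 5. Olfr151 measured 2.47 in wild type and 2.05 in knockout, a very dim signal. Among the other transporters Slc7a5 was nearest to Slc38a2 (0.148, place 238), followed by Slc3a2 (0.207), Slc38a10 (0.220), Slc1a5 (0.238) and Slc38a4 (0.246, place 8146). A gene with the same value in all 8 arrays would lie at 0.226. The places of Slc3a2 and Slc38a10 near that distance can therefore come from little variation alone, and Slc1a5 and Slc38a4 lay beyond it. Since Slc38a2 was chosen by the step between the genotypes, genes with a like step are near it by construction.

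Other amino acid transporters of the plasma membrane were measured as a list of 38 genes. In limma's test 0 passed the 5% false discovery rate and 0 stood at an unadjusted p under 0.05, against 5.73% of all genes. Of the 38, 25 had lower and 13 higher values in knockout, with a median of -0.06. Over all genes 54.7% were lower, with a median of -0.01. Slc1a1, a carrier of glutamate and aspartate, had the highest difference, 0.31 (limma adjusted p = 0.869), with Slc7a6 at 0.20 and Slc1a2 at 0.12. The lower genes with the smallest p were Slc6a6, the taurine carrier, at -0.19 (limma adjusted p = 0.869), Slc7a3 at -0.24 and Slc1a6 at -0.23. Slc7a3 (means 3.61 in wild type and 3.37 in knockout) and Slc1a6 (3.80 and 3.56) were among the dimmest 25% of genes. Carriers of lysosomes and mitochondria gave 0 of 16 genes at either threshold (12 lower, 4 higher, median -0.07). Slc25a38, a mitochondrial glycine carrier, differed by -0.17 and Slc25a15, the ornithine carrier, by 0.12 (limma adjusted p = 0.869 and 0.876), each with separate groups. Groups were separate in 3.62% of all genes.

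Genes that act around these carriers were counted in the same way, where 54.7% of all genes were lower and 5.73% stood at an unadjusted p under 0.05. Of 34 genes that carry amino acid signals to mTORC1, 0 passed in limma's test and 0 stood at an unadjusted p under 0.05 (19 lower, 15 higher, median -0.01). Tsc2, which restrains mTORC1, differed by -0.16 and the GTPase gene Rragd by -0.19 (limma adjusted p = 0.876 for both). Of 22 genes of the GCN2 and ATF4 response 15 had higher values (median 0.06), with 0 past the 5% rate. At an unadjusted p under 0.05 stood 1, the secreted glycoprotein gene Stc2 (0.29, limma adjusted p = 0.861). Its groups were separate, against 3.62% of all genes. Shmt2, of serine and glycine metabolism, differed by -0.18 (limma adjusted p = 0.869), and Atf4 itself, named here for its role, by -0.04.

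Of 18 genes of glutamine, alanine and arginine metabolism, 12 were lower (median -0.03), 0 passed the 5% rate and 2 stood at an unadjusted p under 0.05, both lower. Odc1, which makes polyamines from ornithine, measured 8.64, 7.99, 7.51 and 8.01 in wild types 1 to 4 and 7.66, 6.87, 7.26 and 6.77 in knockouts 1 to 4 (difference -0.90, SE 0.23, limma adjusted p = 0.505). Wild type 3 lay below knockout 1, so the groups overlapped. Nos1, the neuronal nitric oxide synthase that uses arginine, differed by -0.31 (limma adjusted p = 0.780) with separate groups. The osmotic response list held 5 measured genes, all lower (median -0.11). Of these 0 passed the 5% rate and 1 stood at an unadjusted p under 0.05. That was the inositol carrier Slc5a3 (-0.25, limma adjusted p = 0.802), with separate groups. Slc6a6 belongs to that list too. Over all genes 54.7% were lower, 5.73% stood at an unadjusted p under 0.05 and 3.62% had separate groups. Genes of the glucocorticoid and fasting response were higher in 8 of 14 cases (median 0.08) with 0 at either threshold. Pdk4 differed by 0.17 with separate groups and Klf15 by 0.11 with overlap (limma adjusted p = 0.869 and 0.900).

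**Figure D4:**
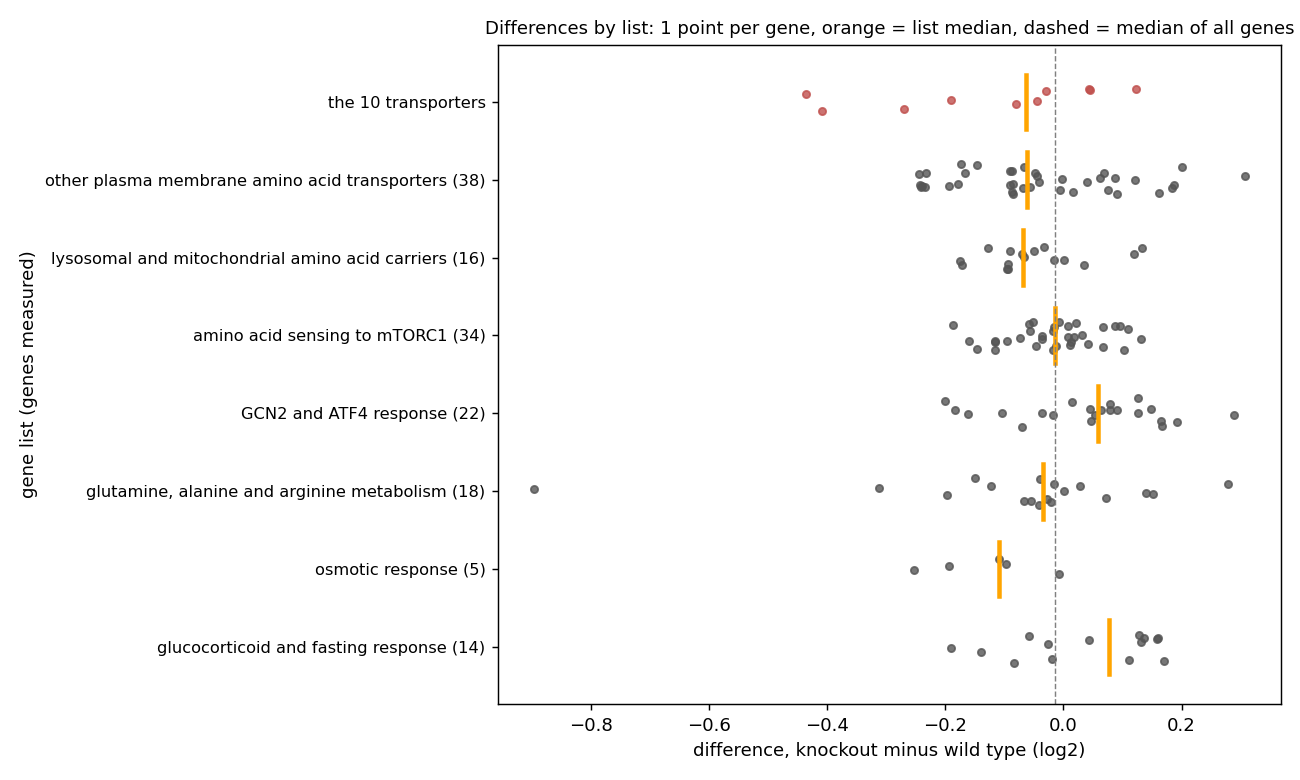
Difference between knockout and wild type (log2) for every measured gene of each list, with 1 point per gene, the list's median in orange and the median of all genes (-0.01) as a dashed line. Slc38a2, Slc38a4 and Slc1a5 at -0.44, -0.41 and -0.27 lie below all points of the other transporter lists, whose lowest values are -0.24 and -0.17. Slc38a2 was chosen for this difference and the Slc38a4 interval reaches -0.00275, so no support is drawn from these positions. The lone point at -0.90 is Odc1.

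Markers of other cells in the muscle were measured beside these genes. Of 14 macrophage markers 2 were lower and 12 higher in knockout (median 0.19), where 54.7% of all genes were lower. In limma's test 0 passed the 5% rate and 6 stood at an unadjusted p under 0.05, against 5.73% of all genes, and the genotypes did not overlap for 3, against 3.62%. Their mean level was 5.47 to 5.61 in the wild types and 5.65 to 5.90 in the knockouts, with no overlap. This was not particular to macrophage markers. Osmotic response means were 5.85 to 5.97 in wild types and 5.73 to 5.83 in knockouts. Means of lysosomal and mitochondrial carriers were 5.74919 to 5.78119 and 5.67459 to 5.74869, also without overlap. The part of macrophages in the transporter differences was not tested. Slow-fibre markers were higher in 7 of 8 cases (median 0.42, 0 at an unadjusted p under 0.05), with list means from 6.33 to 8.37 in wild types and from 5.51 to 9.06 in knockouts. Of fast-fibre markers 4 of 9 were lower (median 0.00408), and of muscle-fibre markers 5 of 5 (median -0.03). Lower values were found for 6 of 9 endothelial, 2 of 6 fibro-adipogenic, 3 of 5 adipocyte, 2 of 3 Schwann cell, 1 of 3 satellite cell, 1 of 3 erythroid and 2 of 4 lymphocyte markers, with medians of -0.03, 0.05, -0.09, -0.24, 0.04, 0.15 and 0.02, in that order. At an unadjusted p under 0.05 stood 1 fibro-adipogenic and 1 Schwann cell marker, both lower. The list means of these 7 types overlapped between the genotypes.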

How the data were processed

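RNA of gastrocnemius from 8 mice, 4 knockout and 4 wild type by the genotype in the labels, was hybridised to 1 array each. Deposited by the authors was 1 table with log2 values of 35556 transcript clusters, and the submitters' processing notes name RMA and Affymetrix Expression Console. Version, settings and build of the array are not given in the sources used here. RMA corrects background, equalises probe distributions between arrays and summarises probes, which compresses differences of dim transcripts. Medians of the deposited arrays still ranged from 4.61 to 4.72. Precision is limited by the small number of arrays.

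Of the clusters, 21789 carried 1 gene symbol in the array annotation, 1621 several and 12146 none here. The cluster with the highest mean over the 8 arrays represented each of 19938 genes, with no filter on dim ones. All 10 transporters were measured, from 11 clusters, and matched RefSeq by Entrez number.

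The genotypes were compared with limma 3.58.1 (lmFit, eBayes; R 4.3.3) and Benjamini-Hochberg adjustment over all genes at 0.05, with 6 residual and 6.26 prior degrees of freedom and a median SE of 0.105. The steps were tested on simulated data whose added differences were larger than those of the transporters. Recovery of differences as small as theirs was not tested. Promoters came from a RefSeq table of GRCm38.p6. The transporters and gene lists were chosen with earlier results of these data known.

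Besides the transporters, the genes named are the nearest to Slc38a2, neighbours on the chromosome, and those with the smallest p in each list (3 in each direction for other plasma membrane transporters, 2 for other lists); Atf4 was named for its role. Alternatives were quantile, median and cyclic loess scaling, a filter that removes the dimmest 25% or 50% of genes, averaging a gene's clusters, array weights, an intensity trend with robust prior, a block for replicate number, a 10% rate, and omission of each array in turn. Leaving out wild type 2 and knockout 4 together was chosen after seeing the data. Figures used matplotlib 3.10.9.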

Additional observations from a re-analysis of the deposited data

How the results depend on the processing

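Among the 10 transporters, the count past a 5% false discovery rate was 0 in limma and in the alternatives, except 1 with an intensity trend and robust prior, a setting that called 17 genes in all. That 1 was Slc38a2, which was picked by this contrast, so its call is no test and supports nothing. The count over all genes, 3, was 11 and 13 without the dimmest 25% and 50% of genes, 16 at a 10% rate, 1 without wild type 2 and knockout 4 together, and 0 to 5 when 1 array was left out (0 without any one of wild types 3 and 4 and knockouts 1 to 4, and 5 without wild type 1). The labels do not say whether replicate numbers pair the mice. Correlations of same-numbered deviations were 0.09, 0.07, 0.22 and -0.10, which cannot settle it. With the replicate block the count over all genes was 0. The count of transporters at an unadjusted p under 0.05, 3 if the chosen Slc38a2 is included, was 1 to 3 when 1 array was left out, with 1 without wild type 4 or knockout 2. Slc38a4, Slc7a5 and Slc1a5 stood under 0.05 in 6, 11 and 5 of 18 alternatives. Of all genes under that p, 467 were higher and 675 lower (59.1%), where quantile normalization and cyclic loess gave 49.0% and 48.3% lower. The share of all genes that were lower, 54.7% with the deposited values, depended on the scaling too. It was 50.1% after quantile normalization, 49.7% after cyclic loess and 59.8% after median centring. Slc38a2 differed by -0.48 to -0.40 over the 18 alternatives. Signs of Slc38a1, Slc7a8, Slc3a2 and Slc43a1 turned in 2, 4, 3 and 3 alternatives. Dim signal limits Slc38a1, which a filter on the dimmest 50% of genes removed.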

Other observations

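The arrays at the ends of a group recurred among the transporters. In 5 of the 10 genes, Slc38a4, Slc7a2, Slc7a8, Slc3a2 and Slc43a1, wild type 2 was the highest and wild type 3 the lowest of the wild types, an order found in 14.9% of all 19938 genes. Wild type 3 was the lowest wild type in 7 of the 10 (25.1% of all genes), Slc38a2 among them. In 6 of the 10, Slc38a1, Slc38a2, Slc38a4, Slc7a2, Slc7a5 and Slc7a8, knockout 2 was the lowest knockout (24.5% of all genes), and in 5 it was the lowest of all 8 arrays. These shares were noticed in the data and carry no test, and genes of 1 array are not independent.

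Among 12 measured genes next to a transporter on its chromosome that are no transporters themselves, 0 passed the 5% rate in limma's test. At an unadjusted p under 0.05 stood 1 of them, against 5.73% of all genes. That gene, Rtn4rl2, which encodes a receptor related to the Nogo receptor and lies beside Slc43a1, averaged 6.25 over wild types and 5.87 over knockouts, a difference of -0.38 (limma adjusted p = 0.538), while Slc43a1 differed by 0.05.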
